A study of Arabidopsis thaliana with 21 samples.

Results

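Lithium chloride (LiCl) was fed to excised Arabidopsis leaves in 3 chemical backgrounds, and its effect common to all 3 is described here. The comparison took 18 of the 21 RNA-seq libraries of the series, 9 from leaves fed LiCl against 9 from leaves without it, with the background kept as a block. Leaves fed LiCl received 100 mM LiCl alone, PAP + LiCl, or PAP + ATP + LiCl, and their counterparts received buffer (control), PAP, or PAP + ATP, with 3 libraries in each of the 6 groups. ATP was given at 1 mM, and PAP at 100 µM according to the sample labels, although the treatment notes give other PAP doses, so that dose is in doubt. ATP alone was left out because it had no counterpart with LiCl. All leaves came from 35-day-old Col-0 Ler F1 hybrid plants and took up a buffer holding sucrose, potassium chloride and sodium citrate through the cut petiole. Excision, the buffer and its sugar are therefore common to both sides. The feeding time is not stated in the sources used here, and no group received another chloride salt at a matched dose, so lithium, chloride and osmotic load cannot be told apart. The labels do not say that the libraries of a group came from separate plants, so p-values measure only the spread between these libraries.

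PAP is a phosphonucleotide that the phosphatase SAL1 degrades, and in plants it inhibits the XRN exoribonucleases and acts as a signal between chloroplast and nucleus. Lithium is a classical inhibitor of SAL1-type phosphatases, of inositol monophosphatases and of GSK3-type protein kinases, which in plants restrain brassinosteroid signalling. High lithium is also an ionic stress for plant cells.

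Each library held between 19190821 and 27155547 reads assigned to genes, and values are CPM, read counts scaled to a common library size. A gene was tested when it reached 1 CPM in at least 3 of the 18 libraries and had values in all 6 groups, which left 17387 of the 21156 genes listed. Changes are differences of log2(CPM + 0.5), LiCl minus no LiCl, averaged over the backgrounds and given with their standard error (SE) for 9 against 9 libraries. This scale understates the change of weakly expressed genes. A gene was called risen or fallen when limma's Benjamini-Hochberg adjusted p was under 0.05. Markers of the leaf were present: summed mesophyll markers stood at 16940 to 38270 CPM in leaves fed LiCl and 12480 to 35000 CPM in the others, while 4 root markers together reached no more than 10.4 CPM with LiCl and 13.1 CPM without. Phloem markers were summed without GLDP1, a photorespiration gene that stood on that list in error. They reached 787.5 to 1075 CPM with LiCl and 378 to 986 CPM without, and 5 of the 6 rose (3 without the libraries of high plastid share and 2 without those low in long transcripts, both described next). Over all genes tested, 20.4% rose and 21.1% fell. The phloem marker PP2-A1 was not called (-0.23), and in the PAP + ATP background taken alone none of the 6 was called. Of 6 mesophyll markers, 3 rose (2 and 1 without the same sets of libraries) and none fell. None of 8 guard cell and 7 xylem markers was called. Summed markers of epidermis and trichomes stood at 316 to 691 CPM with LiCl and 565 to 1989 CPM without, and 2 of the 6 tested fell (33.3%, beside 21.1% of all genes). These were KCS6 (-1.67) and LTP1 (-0.87), which also stand on the list of cuticular wax genes described below. The markers ATML1, PDF2, TRY and KCS10 were not called. In whole leaves, a different number of cells of a type and a different RNA level per cell cannot be told apart.

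Libraries of both sides differed in the share of plastid-encoded reads, and whether that share is technical or a response to LiCl was not tested. Plastid-encoded genes took 0.0569% to 0.475% of reads in the 9 LiCl libraries and 0.0274% to 0.0543% in the other 9, without overlap (exact permutation test within backgrounds, two-sided p = 0.00025, the smallest that its 8000 arrangements allow). Mitochondrial share, nuclear rRNA share and total reads overlapped between the sides (same permutation test, p = 0.13, 0.456 and 0.331). By the numbers of the deposited table, the plastid share was above 0.2% in LiCl library 11 and in PAP + ATP + LiCl libraries 19 and 20. In control library 1 and PAP library 9, long transcripts were low relative to short ones, as described with gene structure. Of 88 plastid-encoded genes tested, 74 rose and none fell, and without libraries 11, 19 and 20, 49 rose and 1 fell (ATCG00450). Of 13 mitochondrial genes tested, 6 fell and none rose. Over all genes tested, 20.4% rose and 21.1% fell. Every gene list was counted again without either set of libraries, and the count is given where it moved by more than 1.5 times.

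LiCl changed a large share of the leaf transcriptome. Of the 17387 genes tested, 3548 (20.4%) rose and 3667 (21.1%) fell, together 41.5%. More than 2-fold changes were called for 1057 risen and 1386 fallen genes, and more than 4-fold changes for 153 and 274. The median change of all genes was 0.01 and the median SE of a gene was 0.18. In 503 genes (2.89%) every LiCl library lay above every library without LiCl, and in 553 genes (3.18%) every LiCl library lay below, together 6.07%. With the 3 libraries of highest plastid share left out, 2900 genes rose and 2941 fell. With the 2 libraries low in long transcripts left out, 2955 rose and 3249 fell. Under neither of these settings did a gene change to the opposite call.

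Genes called in one background mostly changed in the same direction in the others. Taken alone, LiCl against control called 1202 risen (6.91%) and 1657 fallen genes (9.53%). PAP + LiCl against PAP called 1598 (9.19%) and 2010 (11.6%), and PAP + ATP + LiCl against PAP + ATP called 775 (4.46%) and 756 (4.35%). In either direction these are 16.4%, 20.8% and 8.81% of all genes. These comparisons share no library. Of the 1202 genes risen with LiCl alone against control, 99.5% were higher with LiCl in the PAP background and 95.4% in PAP + ATP, beside 49% and 55.8% of all genes. Of the 1657 fallen genes, 99% and 93.3% were lower there, beside 51% and 44.2% of all genes. Opposite calls were made for 3 genes: AT5G60310 rose in the control and PAP backgrounds and fell in PAP + ATP, HOS15 rose in PAP and fell in PAP + ATP, and the plastid gene ATCG00450 fell in PAP and rose in PAP + ATP. ATCG00450 was singled out after its values were seen. Across genes, which are not independent replicates, the log2 changes of LiCl alone correlated with those in PAP at r = 0.86 and with those in PAP + ATP at r = 0.73. The rise or fall was called in all 3 backgrounds for 383 risen and 467 fallen genes, whereas 1533 risen and 1274 fallen genes were called in none of the 3 taken alone. Single libraries weighed on these counts. In the control background, 528, 601 and 676 genes rose without control library 1, LiCl library 11 and LiCl library 12, and 1017, 914 and 824 fell. In PAP, 864 rose and 1287 fell without PAP + LiCl library 15, and 1012 rose without PAP library 7. In PAP + ATP, 321, 373, 427 and 475 genes rose without libraries 20, 21, 16 and 17, and 280, 339 and 474 fell without libraries 20, 21 and 16. The pooled counts stayed between 3033 and 3759 risen and between 3254 and 3863 fallen genes with any 1 library left out.

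**Figure D1:**
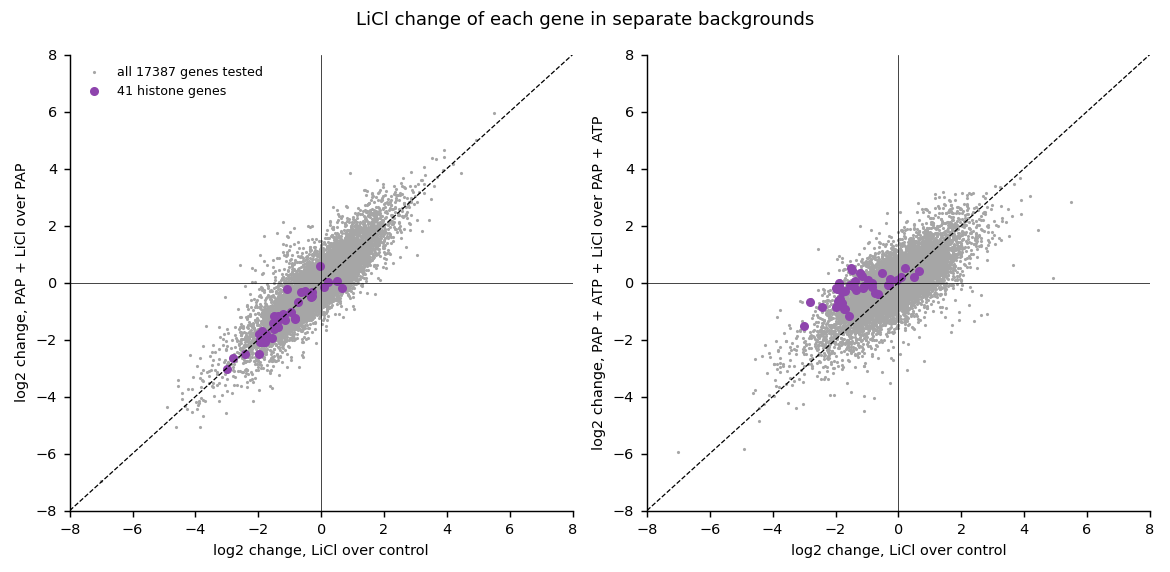
Each grey point is 1 of the 17387 genes tested, with the log2 change of LiCl over control on the x axis and that of PAP + LiCl over PAP (left) or PAP + ATP + LiCl over PAP + ATP (right) on the y axis. Most genes lie near the dashed line of equal change, while the 41 histone genes (purple), which lie near it on the left, have changes closer to 0 on the y axis on the right.

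The largest rises included genes of signalling at the plasma membrane. The cysteine-rich receptor-like kinase gene CRK10 stood at 101 to 404 CPM (median 276) in the 9 LiCl libraries and at 5.57 to 51.6 CPM (median 16.1) in the other 9. Its rise was 3.73 ± 0.34 on the log2 scale (adjusted p = 4.04e-07). The same kinase family gave CRK3 (AT1G70530), with a rise of 3.31 ± 0.24, and CRK11, with 2.91 ± 0.32, and neither overlapped between the 9 and 9 libraries. MAKR6, annotated as a membrane-associated kinase regulator, stood at 89.6 to 248 CPM (median 181) with LiCl and at 5.93 to 23.0 CPM (median 11.2) without, a rise of 3.83 ± 0.26. The most abundant of the large rises was NADK1, an NAD kinase that makes NADP, at 792 to 1379 CPM (median 1058) with LiCl and 55.1 to 383 CPM (median 89.0) without. NADK1 rose by 3.08 ± 0.37, which is 8.43-fold, and its libraries did not overlap. The largest rise of all was that of AT2G32235, which encodes an uncharacterized protein, at 16.8 to 117 CPM (median 63.1) with LiCl and 0.476 to 6.33 CPM (median 1.26) without. It rose by 4.76 ± 0.40, with 5.50, 5.97 and 2.82 in the control, PAP and PAP + ATP backgrounds. The smallest p among risen genes belonged to the transcription factor gene MYB65, whose change was moderate, at 1.69 ± 0.10, but whose 9 and 9 libraries were tightly grouped, at 9.76 to 13.7 CPM with LiCl and 2.45 to 3.79 CPM without. RR3, a response regulator of cytokinin signalling, was the third by p and rose by 2.11 ± 0.13.

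The largest fall was that of AT4G10290, annotated as a cupin-fold protein. It stood at 0.720 to 3.40 CPM (median 1.26) with LiCl and at 98.6 to 359 CPM (median 252) without, a change of -6.63 ± 0.26 (adjusted p = 4.09e-11), or 98.8-fold lower. It was almost silent in every LiCl library and high in every other, with changes of -7.00, -6.95 and -5.93 in the control, PAP and PAP + ATP backgrounds. The terpene synthase gene TPS03 stood at 1.11 to 26.7 CPM (median 9.86) with LiCl and at 96.3 to 426 CPM (median 250) without, a change of -4.47 ± 0.36. GPT2, the glucose-6-phosphate translocator of plastids whose expression marks sugar and light acclimation, stood at 1.05 to 7.09 CPM (median 3.92) with LiCl and at 9.88 to 191 CPM (median 51.8) without, a change of -3.91 ± 0.50. None of these 3 genes overlapped between the sides, although TPS03 varied more than 10-fold among LiCl libraries and GPT2 among the others. Other falls of similar size were those of AT3G46700, a glycosyltransferase gene, at -4.24 ± 0.43, AT1G04570, a major facilitator transporter gene, at -4.05 ± 0.26, and HOS3-1, annotated as a fatty acid elongase-type membrane protein, at -3.85 ± 0.33. AT1G10585, a basic helix-loop-helix factor gene, changed by -3.75 ± 0.34. The smallest p values among falls also included CXE12, a carboxylesterase-type hydrolase gene, at 18.9 to 35.7 CPM with LiCl and 77.5 to 144 CPM without.

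**Figure D2:**
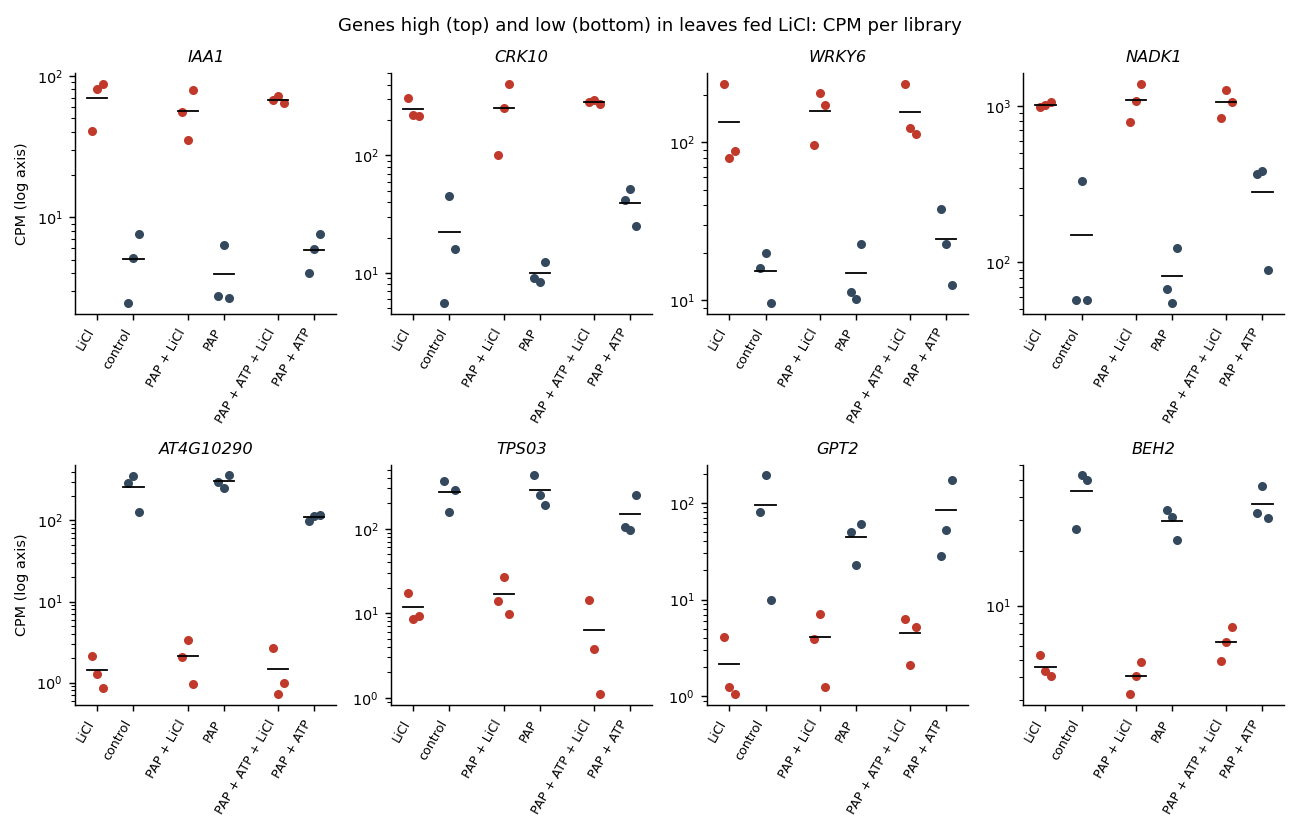
CPM on a log axis for 4 genes that rose and 4 that fell, in each of the 6 groups, with each LiCl group (red) to the left of its counterpart without LiCl (dark). Points are libraries and bars are means of 3; in all 8 genes the 9 red points lie on one side of the 9 dark points.

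The 250 bases before the annotated start of each gene were searched on both strands for short motifs, in 17264 tested genes with a position in TAIR10.1. The W-box forms TTGACC and TTGACT, which WRKY factors bind, were found before 12.3% and 18.8% of all genes. They were found before 15.3% and 22.5% of risen genes, 9.43% and 16.8% of fallen genes, and 18.8% and 29.2% of the genes higher in every LiCl library. The G-box CACGTG, bound by bHLH and bZIP factors, was found before 7.74% of all genes, 6.48% of risen and 10.3% of fallen genes, and 14.1% of those lower in every LiCl library. ACGTG, the core that the G-box contains and that ABA-responsive elements share, was found before 23.9% of all genes, 21.9% of risen and 28.3% of fallen genes. A match is a description of the sequence and not a binding site. The sequences that follow are the 200 bases before the start, 5′ to 3′ on the strand of the gene, from the RefSeq annotation of TAIR10.1. They belong to 3 of the largest rises chosen for holding a W-box and to 2 falls of smallest p chosen for holding a G-box, with the letters of all 3 motifs in capitals on either strand. AT5G41100, a hydroxyproline-rich glycoprotein gene with 4 W-box matches and 1 G-box, rose by 3.80 ± 0.28 (chr5:16446985-16447184, plus strand). IAA1 with 1 W-box match is at chr4:8360796-8360995 (plus strand). AT4G11000, an ankyrin repeat gene with 2 W-box matches that rose by 3.34 ± 0.31, is at chr4:6730728-6730927 (plus strand). CXE12, with 1 G-box and 1 W-box, is at chr3:18038235-18038434 and BEH2, with 3 G-boxes, at chr4:17334356-17334555 (both minus strand).
AT5G41100: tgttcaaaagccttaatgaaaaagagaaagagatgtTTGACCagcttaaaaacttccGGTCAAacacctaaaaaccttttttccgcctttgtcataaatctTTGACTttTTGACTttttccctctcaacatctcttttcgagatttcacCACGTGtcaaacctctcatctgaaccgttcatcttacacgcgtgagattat
IAA1: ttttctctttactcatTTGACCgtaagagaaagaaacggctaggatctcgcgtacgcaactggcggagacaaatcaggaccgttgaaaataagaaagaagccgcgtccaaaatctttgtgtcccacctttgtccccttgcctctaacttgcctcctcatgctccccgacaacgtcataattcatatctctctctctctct
AT4G11000: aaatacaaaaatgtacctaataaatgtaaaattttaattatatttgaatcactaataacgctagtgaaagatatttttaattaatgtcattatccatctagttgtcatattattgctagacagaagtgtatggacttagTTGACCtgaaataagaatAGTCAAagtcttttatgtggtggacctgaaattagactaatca
CXE12: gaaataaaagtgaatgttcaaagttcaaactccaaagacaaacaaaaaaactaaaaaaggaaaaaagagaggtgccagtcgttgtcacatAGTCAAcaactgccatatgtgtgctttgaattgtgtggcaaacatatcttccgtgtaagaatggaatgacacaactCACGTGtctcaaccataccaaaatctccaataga
BEH2: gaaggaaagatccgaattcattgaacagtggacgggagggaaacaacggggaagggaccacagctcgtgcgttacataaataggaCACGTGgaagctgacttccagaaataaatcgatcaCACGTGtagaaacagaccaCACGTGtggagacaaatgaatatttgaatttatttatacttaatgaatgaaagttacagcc

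The gene lists that follow are to be read against the 20.4% of all genes that rose and the 21.1% that fell. These shares varied with gene structure, as described below: 40.8% of genes with 1 exon fell, and 8.89% of those with 10 or more. The lists were not compared with genes of like exon number or length, so part of a list's share may go with its structure. Many auxin-responsive genes rose. Auxin degrades the Aux/IAA repressors, and many Aux/IAA, SAUR and GH3 genes are its direct transcriptional targets. IAA1, an Aux/IAA gene, stood at 35.1 to 87.2 CPM (median 67.8) with LiCl and at 2.48 to 7.62 CPM (median 5.12) without. It rose by 3.62 ± 0.23 (adjusted p = 8.89e-09), with 3.69, 3.71 and 3.47 in the 3 backgrounds. Of 18 Aux/IAA genes tested, 9 rose and 1 fell, with a median change of 0.53 beside 0.01 over all genes. IAA30 (2.42 ± 0.24), IAA5 (1.67 ± 0.21) and IAA13 (1.26 ± 0.14) were the next by p, and all 3 were higher in every LiCl library than in any other. Of 35 SAUR genes, small auxin-up RNAs tied to cell expansion, 19 rose and 6 fell, with a median of 1.4. SAUR19 and SAUR24 rose by 1.82 ± 0.19 and 2.19 ± 0.29, at a low level: SAUR24 stood at 4.01 to 12.8 CPM with LiCl and 0.258 to 3.36 CPM without. The SAUR-like gene AT4G22620 went the other way, at 0.251 to 1.14 CPM with LiCl and 9.59 to 31.5 CPM without, a change of -4.52 ± 0.21. SAUR genes occur in clusters of near-identical copies, and how the authors counted reads that match several copies is not stated, so single copies are uncertain. The auxin element TGTCTC was found before 10.3% of all genes, 17.1% of 35 SAUR genes (6 genes) and 27.8% of 18 Aux/IAA genes (5 genes). Risen genes as a whole held it in 10.4%, fallen genes in 9.81% and genes higher in every LiCl library in 8.87%, near the share of all genes. The family shares cover all tested members, risen or not.

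Of 29 genes of auxin synthesis, transport and turnover, 13 rose (44.8%) and none fell, with a median of 0.47. The influx carrier gene AUX1 stood at 16.1 to 39.9 CPM (median 24.7) with LiCl and at 3.02 to 8.61 CPM (median 6.83) without, a rise of 1.99 ± 0.16 without overlap. The efflux transporter gene ABCB19 rose by 1.68 ± 0.24 and the influx carrier gene LAX2 by 2.18 ± 0.38. GH3.3, which conjugates auxin to amino acids, rose by 2.74 ± 0.36, with 3.27 and 3.45 in the control and PAP backgrounds and 1.5 in PAP + ATP. The difference between backgrounds was not called for GH3.3.

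**Figure D3:**
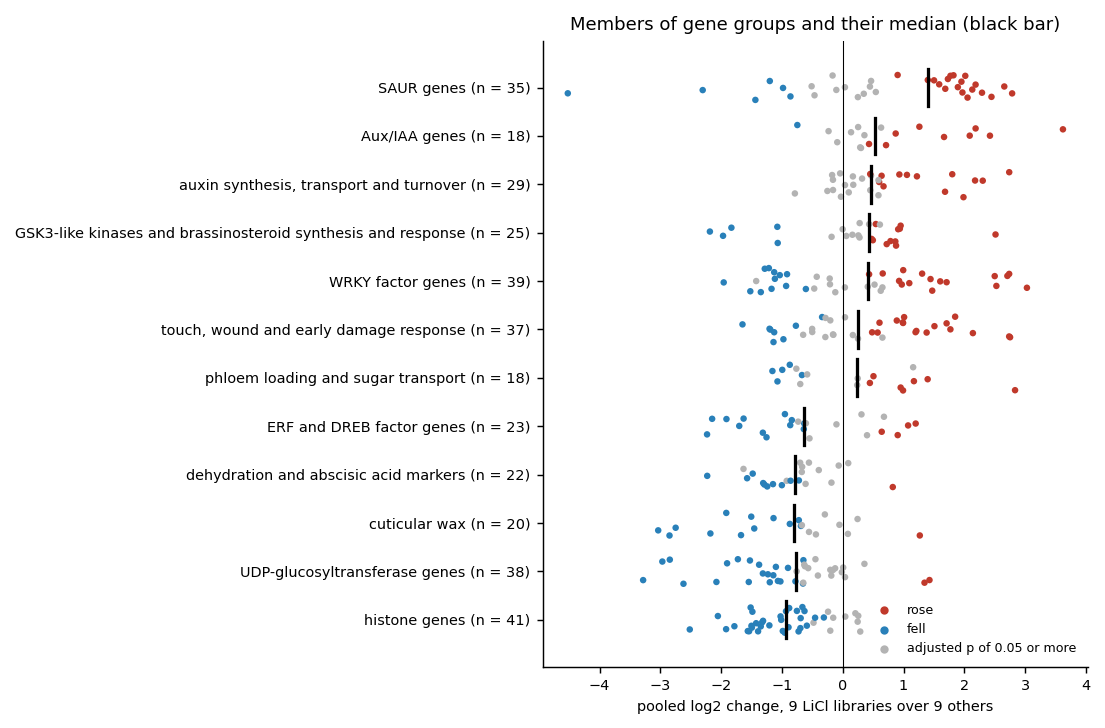
Pooled log2 change of each tested member of 12 gene groups, LiCl over no LiCl (red rose, blue fell, grey adjusted p of 0.05 or more), with the median of each group as a black bar. SAUR and Aux/IAA genes lie mostly to the right, and cuticular wax, UDP-glucosyltransferase and histone genes mostly to the left.

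The brassinosteroid list, 25 genes of GSK3-like kinases and of brassinosteroid synthesis and response, had 11 risen and 5 fallen members and a median of 0.43. BAS1, which inactivates brassinosteroids, stood at 2.83 to 8.89 CPM (median 4.82) with LiCl and at 0.143 to 1.7 CPM (median 0.365) without, a rise of 2.51 ± 0.28. Among enzymes that make the hormone, BR6OX2, a late oxidase, changed by -1.97 ± 0.30, DET2, a steroid reductase, by -1.08 ± 0.16 and DWF4, an early hydroxylase, by -1.07 ± 0.19. DWF1, which acts earlier in sterol synthesis, rose by 0.94 ± 0.27, and the hydroxylase gene CPD was not called. IBH1, a repressor of cell elongation, changed by -2.19 ± 0.24, at 1.09 to 3.31 CPM with LiCl and 5.69 to 18.6 CPM without. BEH2, a homologue of the brassinosteroid factors BES1 and BZR1, had one of the 5 smallest p values among fallen genes, at 3.23 to 7.57 CPM (median 4.85) with LiCl and 23.2 to 52.7 CPM (median 32.6) without, a change of -2.73 ± 0.16. Among the GSK3-like kinases, the class of enzymes that lithium inhibits, 5 of the 8 tested rose by less than 2-fold. These were BIN2 (0.95 ± 0.15), SK32 (0.87 ± 0.13), SK12 (0.72 ± 0.19), SK11 (0.54 ± 0.13) and BIL1 (0.50 ± 0.09). They, DWF4, DWF1, CPD and the brassinosteroid receptor gene BRI1, at -1.83 ± 0.29, were singled out after their values were seen.

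Transcripts of SAL1, a lithium-sensitive phosphatase, and of its relative AHL were lower with LiCl. SAL1 stood at 73.4 to 131 CPM (median 112) with LiCl and at 95 to 220 CPM (median 157) without, overlapping ranges with a change of -0.48 ± 0.16 (adjusted p = 0.0243). It was not called in any single background. The pooled call was lost without the libraries of high plastid share (adjusted p = 0.097), without those low in long transcripts (0.0768) and without the PAP (0.179) or the PAP + ATP background (0.0718). Its relative AHL, a HAL2-like phosphatase whose symbol in the reference is HL, stood at 44.1 to 89.8 CPM (median 55.6) with LiCl and at 93.9 to 267 CPM (median 154) without, a change of -1.35 ± 0.18 without overlap. ITPK1, an inositol phosphate kinase, changed by -1.36 ± 0.13, also without overlap. Of the 17 genes of lithium-sensitive phosphatases and inositol phosphate metabolism, 3 rose and 4 fell, shares close to those of all genes, and 2 rose and 2 fell without either set of libraries. The exoribonuclease gene XRN3 rose by 0.61 ± 0.20 (adjusted p = 0.0187, but 0.153 without the control background and 0.0761 without PAP), while XRN2 and XRN4 had changes of 0.37 ± 0.19 and 0.28 ± 0.19 with adjusted p = 0.126 and 0.246. Of the sulfotransferases, which produce PAP, SOT12 and SOT16 changed by -1.42 ± 0.31 and -1.08 ± 0.15.

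Defence-type signalling genes moved in both directions. WRKY transcription factors, which bind W-box sequences and act in defence and senescence, had 16 risen and 12 fallen members among 39. WRKY15 stood at 232 to 472 CPM (median 334) with LiCl and at 25 to 93.3 CPM (median 58.6) without, a rise of 2.71 ± 0.22. WRKY6 rose by 3.03 ± 0.27, WRKY47 by 2.53 ± 0.27 and WRKY2 by 1.31 ± 0.13, and none of these overlapped between the sides. In the list of touch, wound and early damage genes, 17 of 37 rose and 8 fell (5 fell without the libraries of high plastid share). RBOHD, the NADPH oxidase of the reactive oxygen burst, rose by 1.2 ± 0.15 and BIK1, a receptor-like cytoplasmic kinase of immune signalling, by 1.77 ± 0.25. In contrast, 12 of 23 ERF and DREB factor genes fell and 4 rose, with a median of -0.64, among them ERF7 at -1.91 ± 0.19 and the cold-response factor DREB1A at -2.23 ± 0.32.

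Of 35 genes of jasmonate synthesis and response, 7 rose (20%, the share of all genes; 4 without the libraries of high plastid share) and 12 fell (34.3%), with a median of -0.09. CYP94B3 and ST2A, which inactivate jasmonates by oxidation and sulfation, fell without overlap. CYP94B3 stood at 75.7 to 279 CPM (median 151) with LiCl and at 801 to 1601 CPM (median 1154) without, a change of -2.83 ± 0.21, and ST2A changed by -3.56 ± 0.43. The repressor gene JAZ5 rose by 1.24 ± 0.15, while JAZ3 fell by 1.39 on the log2 scale. In ethylene synthesis, EFE, listed under that symbol and encoding an ACC oxidase, stood at 1470 to 2653 CPM (median 1807) with LiCl and at 447 to 1223 CPM (median 781) without, a rise of 1.33 ± 0.18, and the ACC synthase gene ACS6 rose by 1.19 ± 0.18. Of the 28 ethylene genes, 8 rose (28.6%; 5 genes without the libraries of high plastid share) and 6 fell (21.4%), close to the share of all genes.

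Markers of dehydration and abscisic acid (ABA) fell. Of 22 tested, 10 fell and 1 rose, with a median of -0.79. COR15B, a chloroplast protein of cold and drought, stood at 54.0 to 196 CPM (median 83.7) with LiCl and at 111 to 762 CPM (median 520) without, a change of -2.23 ± 0.31 with overlapping ranges. RD22 (-1.15 ± 0.19), the dehydrin gene LTI30 (-1.29 ± 0.25) and the NAC factor gene RD26 (-1.24 ± 0.26) fell as well. The median of these markers was -0.36 in the control background, where 1 member fell, -0.81 in PAP and -1.27 in PAP + ATP. The differences between these medians were not tested. On a separate list of 29 genes of ABA synthesis, breakdown and signalling, 9 fell (31%) and 3 rose (10.3%), with a median of -0.20. The largest fall on that list was that of the ABA receptor gene PYL5. It stood at 0.251 to 1.69 CPM with LiCl and at 2.40 to 51.4 CPM without, a change of -3.33 ± 0.49.

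Of 20 genes of salt ion transport and proline, 4 rose (20%, the share of all genes) and 6 fell (30%). The vacuolar sodium/proton exchanger gene NHX1 stood at 33.1 to 76.6 CPM (median 38.9) with LiCl and at 66.6 to 363 CPM (median 151) without, a change of -1.81 ± 0.28, whereas NHX4 rose by 1.41 ± 0.23. SIP3, a CBL-interacting protein kinase gene of salt signalling, changed by -2.44 ± 0.25 without overlap. In sulfur metabolism, 5 genes rose (3 without the libraries of high plastid share) and 9 fell of 20. The sulfur deficiency markers LSU2 and ATSDI1 changed by -2.83 ± 0.33 and -2.65 ± 0.39, and APS3, an ATP sulfurylase gene, rose by 1.46 ± 0.21.

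Genes of the leaf surface fell. Of 20 genes of cuticular wax synthesis, 12 fell and 1 rose, with a median of -0.80. KCS6, an elongase of very long chain fatty acids, stood at 128 to 310 CPM (median 188) with LiCl and at 324 to 884 CPM (median 626) without, a change of -1.67 ± 0.21. CER3, an enzyme of alkane formation, changed by -1.51 ± 0.18 and KCS2 by -2.85 ± 0.39, and all 3 lay below the other libraries in every LiCl library. The single riser was the transcription factor gene MYB30, at 1.27 ± 0.16. KCS6 and LTP1 are also in the list of epidermal markers, whose summed level, given above, was lower in part of the LiCl libraries. They are the only epidermal markers that fell, so the marker list is not separate from the wax list. The part of epidermal RNA in the fall was not tested.

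UDP-glucosyltransferases, which attach glucose to hormones and secondary metabolites, fell in 21 of 38 cases and rose in 2, with a median of -0.77. Of these, 10 genes lay lower in every LiCl library than in any other. UGT76E12 stood at 12.9 to 85.6 CPM (median 28.1) with LiCl and at 161 to 558 CPM (median 324) without, a change of -3.28 ± 0.29. UGT85A2, UGT84A3 and UGT76E11 changed by -2.97 ± 0.31, -2.85 ± 0.24 and -2.62 ± 0.21. Because the counting of reads that match several genes is not stated, single members of this family are uncertain as well. In flavonoid and anthocyanin synthesis 7 of 19 fell and 1 rose. The anthocyanin regulator MYB75, listed under its other symbol PAP1 and unrelated to the nucleotide, stood at 1.15 to 10.7 CPM (median 3.1) with LiCl and 13.2 to 130 CPM (median 38) without.

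Of 18 genes of phloem loading and sugar transport, 7 rose (38.9%) and 5 fell (27.8%; 3 genes without the libraries low in long transcripts). Of 30 genes of starch and sugar metabolism, 6 rose (20%; 2 genes without the libraries low in long transcripts) and 7 fell (23.3%), shares close to those of all genes. The hexose importer gene STP1 stood at 407 to 1206 CPM (median 536) with LiCl and at 39.1 to 172 CPM (median 67) without, a rise of 2.84 ± 0.27 without overlap. SUC2, the sucrose loader of phloem companion cells, rose by 0.99 ± 0.19, with 1.33, 1.38 and 0.27 in the 3 backgrounds. The vacuolar fructose exporters SWEET16 and SWEET17 changed by -1.07 ± 0.21 and -1.16 ± 0.23. The starch genes GBSS1, a granule-bound starch synthase gene, and BAM5, a beta-amylase gene, changed by -1.97 ± 0.27 and -3.93 ± 0.69. BAM5 ranged widely, from 1.81 to 82.9 CPM with LiCl and from 80.1 to 1515 CPM without.

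Histone genes fell as a group in 2 of the backgrounds. Of 41 tested genes annotated as histones, 32 fell and none rose, with a pooled median of -0.93. The median was -1.41 in the control background and -1.39 in PAP, with 29 genes fallen in each, and -0.14 in PAP + ATP, with 4 fallen; the difference between these medians was not tested. HTA7, an H2A gene, stood at 0.708 to 3.17 CPM (median 1.98) with LiCl and at 7.50 to 19.6 CPM (median 15.1) without, a change of -2.52 ± 0.23. HTB4, an H2B gene with higher expression, stood at 44.8 to 61.3 CPM (median 49.8) with LiCl and at 80.7 to 207 CPM (median 172) without, a change of -1.5 ± 0.14. With the 3 libraries of high plastid share left out, 30 histone genes fell, and with the 2 libraries low in long transcripts left out, 27 fell. Libraries were made from polyadenylated RNA. Histone genes are near-identical in sequence, so the levels of single copies are uncertain. Of 25 genes of DNA replication and division, 2 rose and 1 fell; the fallen gene was RNR2A, a ribonucleotide reductase subunit gene, at -1.38 ± 0.15. Of 306 genes of ribosomal proteins not annotated as organellar, 105 fell and 7 rose, with medians of -0.13, -0.62 and -0.03 in the 3 backgrounds; 69 fell without the 2 libraries low in long transcripts and 60 without the 3 of high plastid share.

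The histone octamer CGCGGATC, a motif known from plant histone promoters and added to the search after the values were seen, was found in the 250 bases before 9 of the 41 histone genes and before 0.168% of all tested genes. It is shown in capitals in the 200 bases before AT1G09200, an H3 gene that changed by -1.78, -2.07 and -0.33 in the 3 backgrounds (chr1:2972335-2972534, minus strand, 2 matches).
AT1G09200: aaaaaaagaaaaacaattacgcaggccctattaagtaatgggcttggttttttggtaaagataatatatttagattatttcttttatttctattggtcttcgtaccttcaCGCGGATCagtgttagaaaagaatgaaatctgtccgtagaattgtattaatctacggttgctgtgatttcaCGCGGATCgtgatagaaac

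A test of whether the LiCl change differed between backgrounds called 11 of the 17387 genes (0.0633%), beside 1060 genes with an unadjusted p under 0.05. Of the 11, AT3G53730, AT1G07820, HTB9 and HTB11 belong to the histone list, and AT1G06760, outside the list, is annotated with linker histone domains. AT3G53730 stood at 3.72 to 5.95 CPM with LiCl alone against 33.0 to 40.2 CPM in control. It stood at 6.28 to 7.18 CPM with PAP + LiCl against 33.0 to 61.6 CPM with PAP, and at 8.64 to 10.4 CPM with PAP + ATP + LiCl against 12.1 to 19.4 CPM with PAP + ATP. In this gene the leaves fed PAP + ATP without LiCl were low compared with control and PAP leaves. The LiCl groups differed as well, without overlap, lowest with LiCl alone and highest with PAP + ATP + LiCl. The changes were -2.81, -2.66 and -0.69. AT1G06760, named a winged-helix DNA-binding protein, followed the same order, with changes of -2.43, -2.21 and -0.43. HTB9 and HTB11, both H2B genes, had changes of -1.22 and -1.38 in control, -1.11 and -1.55 in PAP, and 0.34 and 0.06 in PAP + ATP.

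Other genes differed in another way. ABCC6, an ABC transporter gene, stood at 26.3 to 28.9 CPM with LiCl alone against 0.333 to 0.528 CPM in control, and at 37.6 to 72.1 CPM with PAP + LiCl against 0.782 to 1.58 CPM with PAP. With PAP + ATP + LiCl it stood at 2.48 to 12.4 CPM against 2.73 to 8.66 CPM with PAP + ATP, which overlap. The changes were 4.91, 5.00 and 0.17, each with an SE of 0.45, and the change in PAP + ATP minus that in PAP was -4.84 ± 0.63 (adjusted p = 0.00813). EDA25 had changes of 2.81, 2.84 and -1.10, and AT5G61800, a pentatricopeptide repeat gene, 2.39, 2.91 and -1.36. HOS15, a WD-40 repeat protein of cold tolerance, stood at 37.6 to 55.5 CPM with LiCl alone against 31.5 to 45.9 CPM in control. It stood at 49.9 to 79.7 CPM with PAP + LiCl against 34.7 to 41.5 CPM with PAP, and at 45.4 to 53.6 CPM with PAP + ATP + LiCl against 146 to 172 CPM with PAP + ATP. The high group was thus PAP + ATP without LiCl. Between backgrounds taken in pairs, none of the differences of PAP from control passed, 5 of PAP + ATP from control did, and 19 of PAP + ATP from PAP. Single libraries decided the count of 11: with 1 library left out it was 26 without PAP + ATP library 18, 1 without PAP + ATP + LiCl library 20 and 2 without PAP + ATP library 17. It was between 3 and 6 without libraries 1, 2, 3, 8, 10 to 16, 19 and 21. With the 3 libraries of high plastid share left out, limma called none, beside 563 genes with an unadjusted p under 0.05; on all libraries edgeR called 11 and DESeq2 109.

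**Figure D4:**
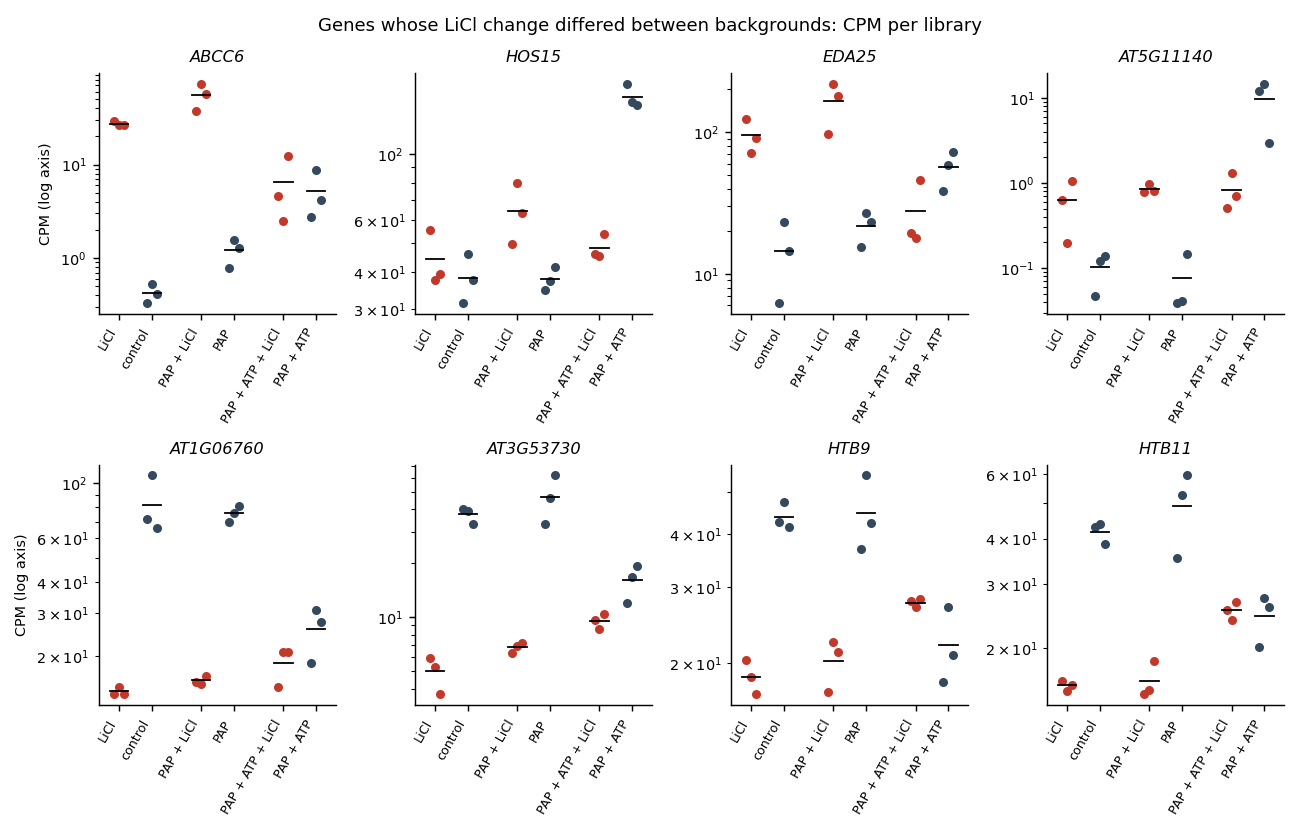
CPM on a log axis for 8 of the 11 genes whose LiCl change differed between backgrounds, with each LiCl group (red) to the left of its counterpart (dark); points are libraries and bars are means of 3. In the upper row the red points of ABCC6 lie above the dark ones in the first 2 pairs and overlap them in the third, and in the lower row the fall seen in the first 2 pairs is small or absent in the third, where the PAP + ATP libraries without LiCl are already low.

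The change varied with gene structure. Of 2440 genes with 1 exon, 40.8% fell and 12.3% rose, whereas of 3598 genes with 10 or more exons, 8.89% fell and 27.5% rose, beside 21.1% and 20.4% over all genes tested. Fallen genes had a median transcript length of 1581 bases and 3 exons, and risen genes 2051 bases and 6 exons, with 1771 bases and 5 exons over all. In each library, the mean log2 level of genes with 10 or more exons minus that of genes with 1 exon was 1.1 to 1.73 (median 1.58) with LiCl and 0.37 to 1.25 (median 1.08) without, ranges that overlap slightly. This balance differed by 0.60 in the mean (exact permutation test within backgrounds, two-sided p = 0.00025, the smallest possible). The test was not planned and uses the same libraries and genes as the calls by exon number. It therefore gives those calls no separate support. For transcript length, the mean of the longest quintile minus that of the shortest was 0.50 to 1.00 with LiCl and -0.57 to 0.81 without. The 2 values below 0 came from 1 control library, at -0.57, and 1 PAP library, at -0.54. Without these 2 libraries, 36.4% of genes with 1 exon fell and 11.5% rose, while 10.2% of genes with 10 or more exons fell and 19.6% rose. The part of RNA quality in this pattern was not tested.

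**Figure D5:**
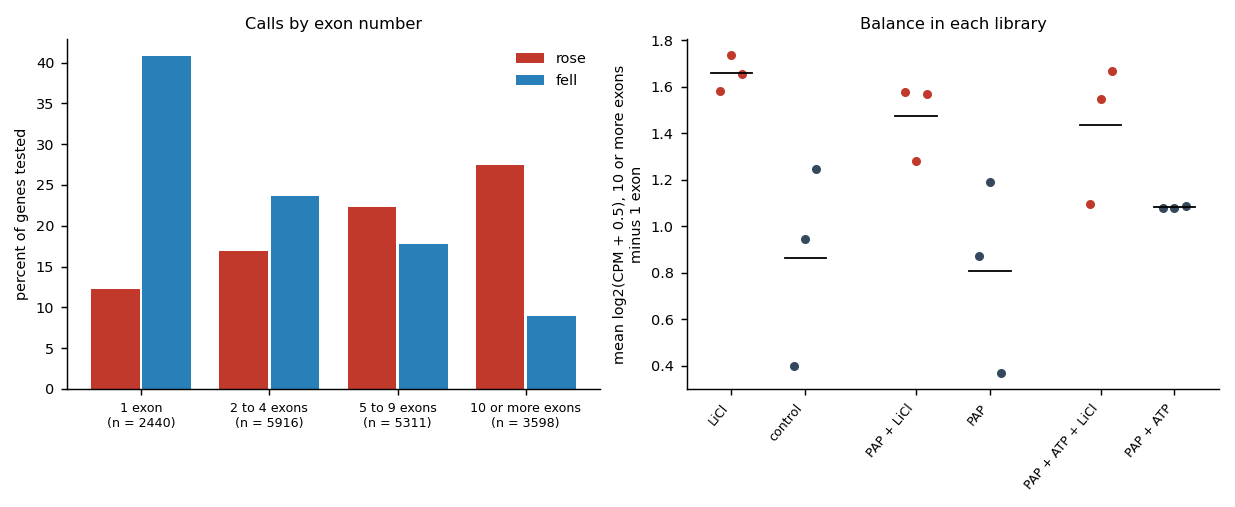
Left, percent of tested genes that rose (red) or fell (blue) by number of exons; the share that fell is 40.8% for genes with 1 exon and 8.89% for genes with 10 or more. Right, the mean log2(CPM + 0.5) of genes with 10 or more exons minus that of genes with 1 exon in each library (points; bars are means of 3), with each LiCl group (red) left of its counterpart (dark).

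Genes that lie close behind an active gene were also counted. Of 426 tested genes whose upstream neighbour on the same strand ended within 500 bp and had at least 10 times their mean CPM, 20.66% rose and 17.37% fell. These shares lie close to the 20.4% and 21.1% over all genes.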

How the data were processed

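Leaf RNA was profiled with libraries from polyadenylated RNA, made with a kit that keeps no strand information, so antisense transcripts are not told apart. Per the submitters' processing notes, the authors used Subread and featureCounts with TAIR10. Versions and the treatment of reads that match several genes are not given in the sources used here. The deposited values are CPM, read counts scaled to a common library size, 1 column per library, and the columns name the group but no replicate. Columns of 3 ATP libraries were not used. Every deposited CPM value was a whole multiple of the value of 1 read (100% at a tolerance of 1e-06), so read counts were recovered; blank cells stayed blank. Genes needed 1 CPM in at least 3 of 18 libraries and values in all 6 groups. The main test was limma 3.58.1 (R 4.3.3) with an intensity trend on log2(CPM + 0.5), with 1 LiCl coefficient and the background as a block, Benjamini-Hochberg adjusted over 17387 genes at 0.05. The LiCl change within each background and its difference between backgrounds came from a fit with 1 mean per group. On recovered reads, edgeR 4.0.16 (quasi-likelihood) called 3391 risen and 3943 fallen genes and DESeq2 1.42.0 called 3870 and 4193. The fit was also run on simulated reads. These were drawn without the differences of plastid share and transcript length between libraries, so that run does not bear on those differences. Genes named are the 14 largest changes per direction with a mean of at least 5 CPM and no overlap, the 5 smallest p per direction, the 4 smallest p of each gene list, the 8 smallest p of the interaction test, and SAL1, AHL and XRN2 to XRN4. All genes, lists and members were chosen with earlier results of these data known. The patterns for SAUR and Aux/IAA members were widened after the written ones matched few genes. The histone octamer and the 2 alternatives that leave out sets of libraries were added after seeing the data. The permutation tests on library shares and on the exon balance were not planned either. Gene names, positions and exon numbers come from RefSeq's TAIR10.1 annotation. The range of read depth over libraries is given in the report.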

Additional observations from a re-analysis of the deposited data

Results flagged for a closer look

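The LiCl change differed between the 3 backgrounds in 11 genes by limma's F test on the interaction (adjusted p between 0.00853 and 0.0477). Beside the 4 genes of the histone list, AT3G53730 (F = 25.1), AT1G07820 (F = 24.4), HTB9 (F = 22.4) and HTB11 (F = 21.9), these were AT1G06760 (F = 26.6), which is annotated with linker histone domains, HOS15 (F = 38.8), ABCC6 (F = 38.3), AT5G61800 (F = 25.9) and EDA25 (F = 24.6), whose values are given above. AT5G60310, a lectin receptor kinase gene, had F = 32.7, with changes of 1.69 and 2.38 in the control and PAP backgrounds and -1.75 in PAP + ATP. AT5G11140, a phospholipase-like gene, had F = 24.98, with changes of 0.83, 1.23 and -2.74. It stood at 0.507 to 1.31 CPM with PAP + ATP + LiCl against 2.97 to 14.4 CPM with PAP + ATP. In all 11 genes the odd change was that in PAP + ATP.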

How the results depend on the processing

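No gene called in the pooled test changed to the opposite call under any setting run (pseudocounts of 0.1 and 2, filters, scalings, all 21 libraries, edgeR, DESeq2, and libraries or backgrounds left out). The smaller designs called fewer genes: 1981 rose and 2081 fell without the PAP background, and 2367 fell without the control background. In the control background alone, 1932 genes rose by DESeq2, 412 rose and 683 fell without the libraries of high plastid share, and 644 rose without those low in long transcripts. In PAP + ATP alone, 1450 fell by DESeq2, and 12 rose and 47 fell without the libraries of high plastid share, which leaves 1 LiCl library there, assumed to vary like the other groups. The interaction test then called 0 genes by limma, with 563 at an unadjusted p under 0.05; on all libraries limma called 11 genes, edgeR called 11, DESeq2 109, and limma with all 21 libraries 4. With each library left out in turn, the pooled test called 3033 to 3759 risen and 3254 to 3863 fallen genes, and the interaction test 1 to 26. The control background gave 528 to 1623 risen and 824 to 1897 fallen, PAP 864 to 1891 and 1287 to 2252, and PAP + ATP 321 to 909 and 280 to 847. The cause of these shifts, beyond fewer libraries, was not tested.

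Of the 212 genes named for their pooled change, 203 were called, and 42 of these lost the call under at least 1 setting, 23 of them under exactly 1. Leaving out the PAP background cost 29 calls, the control background 20, PAP + ATP 12, the libraries of high plastid share 11 and those low in long transcripts 8. A further 2 genes that were not called changed sign. GRXC1 moved to 0.059 without the libraries low in long transcripts, and GRXS17 to 0.0099 there and to 0.017 without the PAP background. Among genes changed by more than 1 on the log2 scale, motif shares moved to 34.0% (ACGTG, fallen), 12.5% (G-box, fallen), 18.3% and 29.0% (W-boxes TTGACC and TTGACT, risen), 26.7% and 25.3% (sulfur element GAGAC, risen and fallen) and 3.04% (telo-box, fallen). They moved to 8.63% and 11.9% (site II element TGGGCC, risen and fallen), 11.3% (auxin element, fallen) and 48.8% (TATA, fallen). No paired analysis was possible because the columns of the deposited table carry no replicate numbers of the labels. Weakly expressed genes limit the precision, since 1 read is about 0.04 CPM.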

Other observations

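Of 15 genes on the list of evening-phased clock genes, 6 fell (40%) and 1 rose, and of 11 morning-phased ones, 4 rose (36.4%) and 3 fell (27.3%), beside 20.4% risen and 21.1% fallen over all genes. FKF1, a blue light receptor of the day-length pathway, changed by -2.12 ± 0.38 and the clock gene PRR3 by -1.59 ± 0.29. CDF1, a repressor of flowering genes that stood on the evening list although its transcript is known to peak near dawn, changed by -1.81 ± 0.29. It is counted among the 6 fallen genes, so the 40% is not a share of evening-phased genes alone. None of the genes on the photosynthesis lists passed as fallen: of 43 genes of light harvesting and photosystems 4 rose (9.3%, below the 20.4% of all genes), with a median of 0.18, and of 20 Calvin cycle genes 4 rose (20%), with a median of 0.31, beside a median of 0.01 over all genes. Of the light harvesting genes 2 rose under TMM or median-of-ratios scaling and 1 without either set of libraries that stand apart. CAB3, LHCB5 and LHB1B1 lost the call under 17, 19 and 21 of 34 settings. Of the Calvin cycle genes 3 rose without the libraries of high plastid share and 2 without those low in long transcripts. Of 18 heat shock genes, 11 fell and 1 rose, with a median of -0.66, but 5 fell without the libraries of high plastid share and 8 without those low in long transcripts. HSP70 changed by -1.73 ± 0.47 (adjusted p = 0.00711, but 0.0738 without the PAP background). In nitrogen uptake and assimilation, 8 of 23 fell (34.8%; 5 genes without the libraries low in long transcripts) and 5 rose (21.7%, close to the share of all genes). The nitrate reductase gene NIA1 changed by -1.97 ± 0.34 and the nitrate transporter gene NRT1.1 by -1.66 ± 0.33. Of 35 NAC factor genes, 13 fell and 6 rose, with NAC102 at -1.59 ± 0.15. Of 31 genes of antioxidant enzymes, 4 rose (12.9%; 2 genes without the libraries low in long transcripts) and 7 fell (22.6%). The catalase genes CAT2 and CAT3 rose by 0.74 ± 0.14 and 1.11 ± 0.19, while GPX2 and DHAR1 of the same list fell. The chloroplast ferric reductase gene FRO7 rose by 1.64 ± 0.23.

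Some genes have no value in whole groups of the deposited table and were not tested. A blank always covered all 3 libraries of a group, and the lowest listed value was 1 read. In each of the 18 libraries 2357 to 6653 reads were not listed. A blank group may therefore hold libraries with reads, and it does not show that a gene was silent there. In 42 genes the 3 LiCl groups alone had values, with the highest mean for the F-box protein gene AT3G22730, at 8.39 CPM over the LiCl libraries (0.0900 to 30.1 CPM), followed by the subtilisin-like protease gene AT5G03620, at 4.04 CPM (0.630 to 8.58 CPM). In 107 genes the 3 groups without LiCl alone had values. The highest means there were those of the nitrate transporter gene NRT1.8 (6.81 CPM, 0.415 to 20.4 CPM), the sulfur deficiency gene LSU1 (5.02 CPM, 1.79 to 18.1 CPM) and the anthocyanin regulator gene MYB113 (4.69 CPM, 0.684 to 9.10 CPM).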
